A study of Saccharomyces cerevisiae with 219 samples.

Results

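Transcript abundance was described on 8 of the 32 arrays of a temperature upshift, which form 1 set of a larger series. They hold RNA of yeast from stationary phase cultures collected 60, 90, 120 and 150 min after the upshift, with 2 arrays at each time, and were chosen by time alone. The 2 arrays labelled 30 min were left out because each correlated at 0.991 or 0.994 across genes with an array of the lysate set. The 8 were set against 6 T0 arrays of unstressed cells, and against 8 arrays of cells 1, 1.5, 2 and 2.5 h after addition of menadione, a redox-cycling drug.

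The study asked how the transcripts of cells in stationary phase respond to stress. It proposes that such cells hold mRNA that resists extraction and that stress can release. A rise below is a rise in extracted RNA, and the part of release in it was not tested. By the study's methods all these cells were a MATα S288c strain with his3, leu2, lys2, trp1 and ura3 alleles. They were grown to stationary phase in rich glucose medium with adenine. Upshift cultures were then shifted to a higher temperature, menadione was added to the cultures of the other course, and T0 cells were taken before menadione was given. The labels of the arrays give the culture state and a time but no treatment, which comes from the names of the sets and from the methods. The T0 arrays belong to the menadione course, so the course and the treatment cannot be told apart. Each T0 array also matched 1 T0 array of another menadione course, at correlations of 0.977 to 0.981. The 2 upshift arrays at a time carry replicate numbers 1 and 2, called series 1 and series 2 below, and no source says that upshift replicates were separate cultures. For T0, the methods speak of independent replicates, some biological and some technical, and do not assign them to arrays. P-values therefore measure the spread between these arrays, and successive times were taken as independent.

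In budding yeast a rise in temperature activates Hsf1, a transcription factor bound upstream of many chaperone genes, and Msn2 and Msn4, which drive a broad set of stress genes. Chaperones of the Hsp70 and Hsp90 families hold or refold damaged proteins with the help of J-domain proteins, nucleotide exchange factors and other cochaperones, and Hsp104 pulls proteins out of aggregates. Cells in stationary phase have left the division cycle and already hold many stress transcripts, among them those of HSP12 and HSP26, while their ribosomal protein transcripts are low.

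Values are log2 ratios of sample RNA (Cy5) to a mixed RNA pool of stationary and dividing cells (Cy3) that all arrays share, centred so that the median gene of each array is 0. Upshift arrays held usable values for 2767 to 4585 genes (median 3905.5) and T0 arrays for 3845 to 4856 (median 4262.5), of 5691 genes on the array. Before centring, array medians ran from -0.89 to 1.22 on upshift arrays and from -1.53 to 0.61 on T0 arrays. Upshift arrays correlated with each other at 0.938 to 0.954 within series 1, 0.930 to 0.961 within series 2 and 0.913 to 0.939 between series, and with T0 arrays at 0.772 to 0.910. The stationary phase state was visible in both groups: on upshift arrays the median of 20 stationary phase genes was 2.27 to 2.93 and that of 134 cytosolic ribosomal protein genes was -4.47 to -3.58, against 1.90 to 2.19 and -4.15 to -3.56 on T0 arrays. In cultures, fewer cells that hold a transcript and less of it per cell cannot be told apart. The genes measured by several probes, SSA4 and HSP104 among them (17 probes each), are given as the mean of their probes.

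Many chaperone transcripts were higher after the upshift. Of 51 distinct genes tested from 5 chaperone and heat shock lists, 28 rose and 1 fell, which is 11.7% of all rises, and the other rises came from many functions. By limma, 239 of the 3037 genes with enough values rose (7.87%) and 142 fell (4.68%). Rose and fell are used where the adjusted p was under 0.05 and the change 2-fold or more. In 163 of the rises every upshift array lay above every T0 array, which over all genes tested was so for 6.22%, and in 57 of the falls every upshift array lay below every T0 array, against 3.29% of all genes tested. The median gene tested differed by -0.11. With the series as a random block, 212 genes rose (6.98%) and 91 fell (3%). Without centring, where the median gene differed by 0.30, 278 rose and 16 fell. The falls are stated relative to the median of each array. T0 arrays also spread more without centring, with a median standard deviation of 0.80 against 0.44 centred. The parts of scaling and spread in the lower count were not tested. Of 257 tested genes that the study listed as higher 30 min after the upshift, 145 rose and none fell, with a median of 1.27. That list was chosen on upshift arrays and is not independent evidence.

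**Figure D1:**
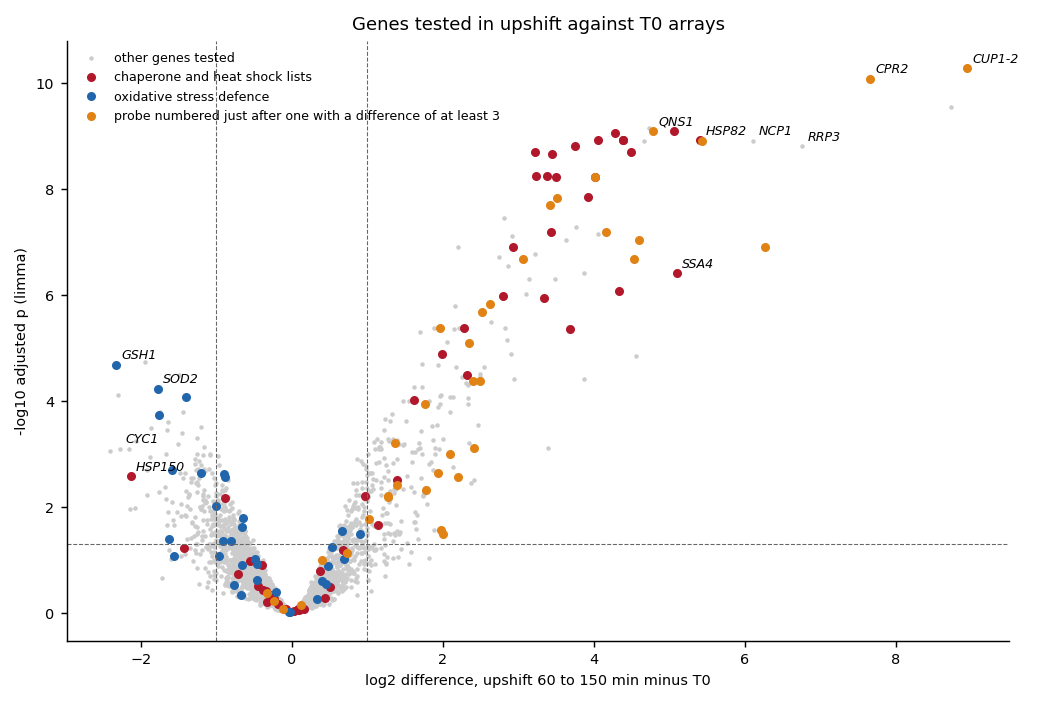
Log2 difference of each of 3037 genes between upshift arrays (60 to 150 min) and T0 arrays on the x axis, and the -log10 of its adjusted p from limma on the y axis. Dashed lines mark 2-fold and an adjusted p of 0.05. Of the chaperone and heat shock genes (red) 28 lie past both lines on the right, among 239 genes there, oxidative stress defence genes (blue) lie mostly left of 0, and genes whose probe is numbered just after that of a strongly higher probe (orange) reach the far right.

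The Hsp90 system was the group with the highest median. HSP82 (YPL240C), the heat-inducible Hsp90, had 2.48, 3.28, 3.44 and 3.41 at 60, 90, 120 and 150 min in series 1 and 2.78, 3.29, 4.33 and 4.96 in series 2, against -2.32 to -1.59 (median -1.86) on T0 arrays. Its lowest upshift array was thus far above its highest T0 array, and the mean difference was 5.41 ± 0.25 (SE, 8 upshift and 6 T0 arrays), or 42.5-fold, with an adjusted p of 1.17e-09 by limma. CPR6, a cyclophilin that binds Hsp90, lay between 2.22 and 4.59 (median 3.53) on upshift arrays and between -2.0 and -1.27 (median -1.53) on T0 arrays, 33.3-fold higher. HSC82, the constitutive Hsp90, is close in sequence to HSP82, and how far the 2 probes share signal is not known from the files. It had 1.02 to 2.73 after the upshift and -2.09 to -1.56 at T0, a difference of 3.76 ± 0.18.

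HSP104, the disaggregase, had 1.73 to 3.73 (median 3.02) on upshift arrays and -1.63 to -0.47 (median -1.22) on T0 arrays, 16.2-fold higher. The differences of its 16 measured probes ran from 2.10 to 4.80. The cochaperones AHA1 and HCH1, which stimulate the ATPase of Hsp90, rose by 3.50 ± 0.19 and 3.43 ± 0.23, and STI1, which links Hsp70 to Hsp90, by 3.38 ± 0.19. In all 7 of these genes no upshift array overlapped a T0 array. Of 15 genes in the list of Hsp90, Hsp104 and cochaperones, 11 were tested, 7 rose and none fell, with a median of 3.43 (all genes -0.11). The 4 that were not called were the kinase cochaperone CDC37 at -0.18, the cyclophilin CPR7 at -0.55, SBA1 (yeast p23) at 0.09 and SGT1 at 0.17.

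**Figure D2:**
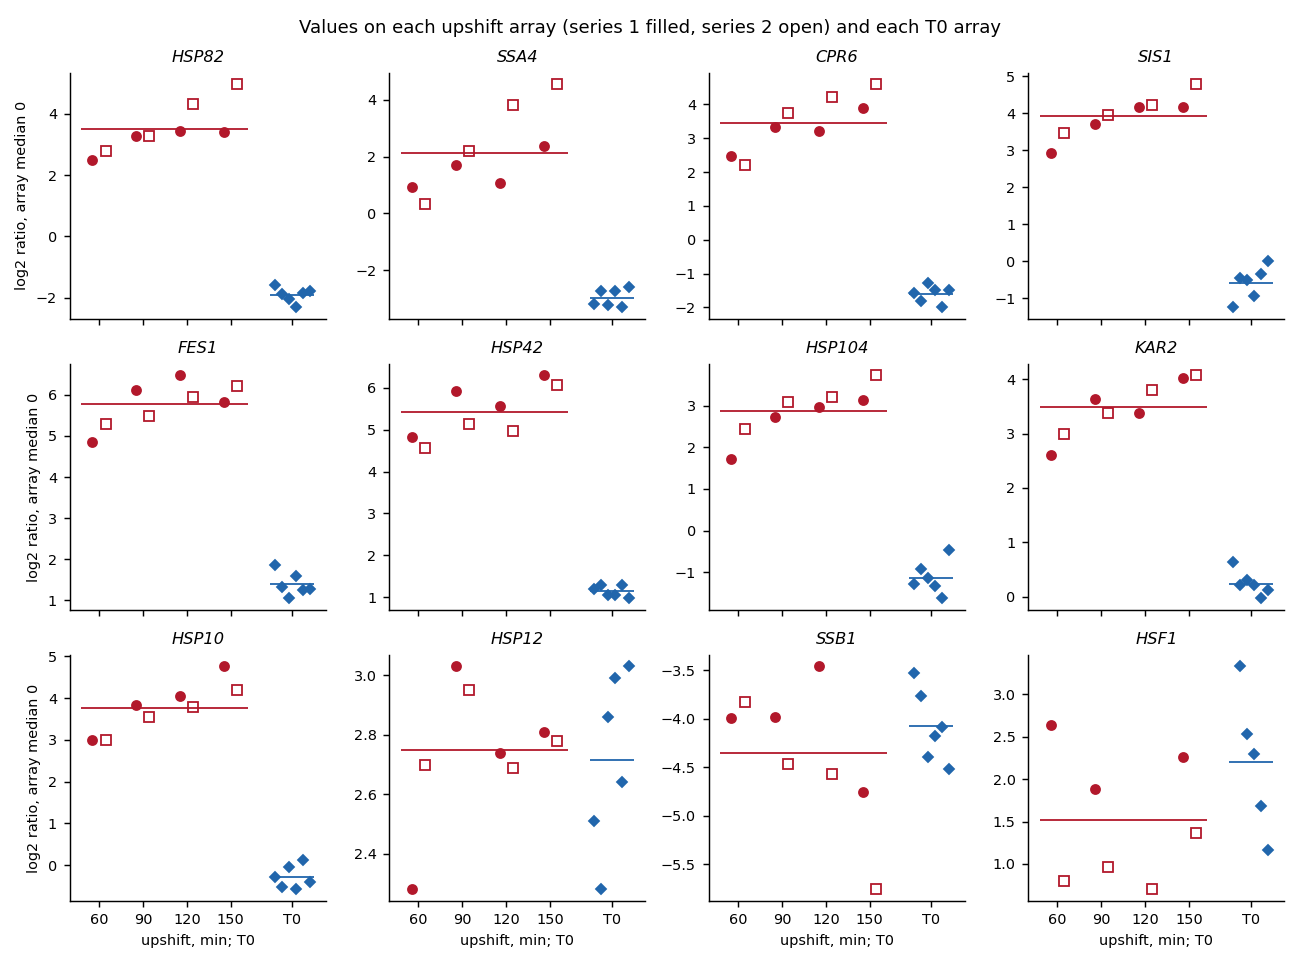
Centred log2 ratios of 12 genes on each upshift array (red, by time, series 1 filled and series 2 open) and each T0 array (blue), with lines at the group means. Each panel has its own y axis. In 9 panels, HSP82 to HSP10, every upshift value lies above every T0 value, while in the panels of HSP12, SSB1 and HSF1 the groups overlap.

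Most members of the Hsp70 family rose, and 3 did not. SSA4, the heat-inducible cytosolic Hsp70, had the widest spread of the family over the upshift arrays: 0.93, 1.71, 1.08 and 2.39 at 60, 90, 120 and 150 min in series 1 and 0.32, 2.20, 3.84 and 4.55 in series 2, against -3.31 to -2.60 (median -2.97) on T0 arrays. The groups did not overlap and the difference was 5.10 ± 0.41 (34.2-fold, adjusted p 3.81e-07 by limma). The differences of its 15 measured probes ran from 3.26 to 6.65. SSA1 and SSA2, a near-identical pair whose probes may share signal, lay between -2.48 and -0.62 and between -2.66 and -0.81 after the upshift, against -5.72 to -5.05 and -7.61 to -5.25 at T0. They rose by 3.92 ± 0.23 and 4.34 ± 0.37, although their upshift levels were still below the median gene of the array. SSA3, an Hsp70 that stationary cells are known to express, was already at 1.11 to 1.90 on T0 arrays and reached 2.97 to 4.28 on upshift arrays, 3.99-fold higher.

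SSE1 and SSE2, Hsp110-type exchange factors for Hsp70, rose by 4.39 ± 0.20 and 3.69 ± 0.37. KAR2, the Hsp70 of the endoplasmic reticulum, had 2.61 to 4.07 (median 3.51) on upshift arrays and -0.03 to 0.63 (median 0.22) on T0 arrays, 9.46-fold higher. SSC1, the Hsp70 of the mitochondrial matrix, rose by 2.32 ± 0.28, and SSZ1, of the ribosome-associated complex, by 1.39 ± 0.28. The ribosome-bound pair SSB1 and SSB2, which assist new polypeptides, were not called: they lay between -5.76 and -3.46 and between -6.27 and -3.65 after the upshift, against -4.52 to -3.53 and -4.69 to -3.48 at T0. Their differences were -0.27 ± 0.25 and -0.38 ± 0.29, with adjusted p of 0.456 and 0.362 by limma, and LHS1, the second Hsp70-type protein of the endoplasmic reticulum, differed by -0.40 ± 0.18 (adjusted p 0.122). Of 14 genes in the family 12 were tested, 9 rose, none fell, and the median was 2.78.

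Of 13 tested J-domain proteins and exchange factors, which assist Hsp70, 6 rose. SIS1, an essential cytosolic J-domain protein, had 2.93 to 4.78 (median 4.06) on upshift arrays and -1.24 to 0.00 (median -0.47) on T0 arrays, 22.6-fold higher. FES1, a nucleotide exchange factor of cytosolic Hsp70, had 4.86 to 6.47 (median 5.89) on upshift arrays and 1.06 to 1.85 (median 1.30) on T0 arrays, 20.9-fold higher. YDJ1, the most abundant cytosolic J-domain protein, rose by 3.44 ± 0.17, and APJ1 by 2.28 ± 0.23. HLJ1, of the endoplasmic reticulum membrane, rose by 1.14 ± 0.31 with overlap between the groups and was not called with the series as a block. The sixth was MDJ1 of mitochondria. None of the 13 fell and the median was 0.68, with 21 genes in the list.

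In mitochondria, 7 of 11 listed chaperone genes were tested and 5 rose, with a median of 2.32. HSP10 and HSP60, which together form the mitochondrial chaperonin, rose by 4.06 ± 0.19 and 2.93 ± 0.21, the J-domain protein MDJ1 by 3.34 ± 0.29 and the matrix disaggregase HSP78 by 1.61 ± 0.22. SSC1 is the fifth. The probe of HSP10 is numbered just after that of SGT2, which differed by 3.50 at the probe level, and the part of this in its value was not tested. The cytosolic chaperonin and prefoldin list, which folds actin and tubulin, had no called gene: 9 of its 14 genes were tested and the median was -0.31, or 0.27 without centring.

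Small heat shock proteins and hydrophilins did not behave as 1 group. HSP42, a sequestering small heat shock protein, had 4.57 to 6.30 (median 5.35) on upshift arrays and 0.97 to 1.30 (median 1.11) on T0 arrays, 19.5-fold higher. HSP30, a plasma membrane protein known as a negative regulator of the proton pump, had 2.70 to 4.05 after the upshift and -0.02 to 0.36 at T0, 9.30-fold higher. HSP26 was already high in T0 cells, at 1.39 to 2.47, and reached 4.11 to 5.50 on 7 upshift arrays, 6.95-fold higher. HSP12, a membrane-associated hydrophilin and a common marker of Msn2 and Msn4 activity, had 2.28 to 3.03 on upshift arrays and the same 2.28 to 3.03 on T0 arrays, a difference of 0.03 ± 0.18 (adjusted p 0.922 by limma). GRE1 (0.37 ± 0.18), SIP18 (-0.35 ± 0.27), SNO4 (-0.33 ± 0.44) and YRO2 (0.50 ± 0.35) were not called, nor were HSP31 (0.97 ± 0.22) and HSP33 (-1.42 ± 0.50), although both passed the threshold under some alternatives, HSP31 at 1.36 without centring and HSP33 at -1.81 without T0 replicate 6. HSP150, a secreted cell wall protein in spite of its name, fell by 2.13 ± 0.42. In all, 11 of 12 genes were tested, 3 rose and 1 fell.

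Transcripts of the regulators themselves showed no called change. HSF1 had 0.70 to 2.64 (median 1.37) on 7 upshift arrays and 1.17 to 3.33 (median 2.30) on 5 T0 arrays, a difference of -0.79 ± 0.43 (adjusted p 0.213 by limma). MSN2 differed by -0.67 ± 0.26, MSN4 by -0.53 ± 0.26 and YAP1, an oxidative stress regulator, by -0.43 ± 0.32. RPN4, which drives proteasome genes, differed by 1.00 ± 0.34 (adjusted p 0.0528) and passed the threshold when T0 replicate 4, T0 replicate 5 or the 60 min arrays were left out, at 1.13, 1.24 and 1.13. The other tested members (GIS1, HAC1, HOT1, SKN7 and XBP1) differed by -0.07 to 0.40. Of 15 genes 10 were tested, with a median of 0.03, and RNA level says nothing of the activity of these factors.

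Beside these lists, 5 of 22 tested genes of ubiquitin conjugation rose (22.7%) and 2 fell (9.09%), and 2 of 8 of endoplasmic reticulum folding rose (25%), where all genes gave 7.87% and 4.68%. ERO1, the oxidase that drives disulphide formation in the endoplasmic reticulum, had 3.97 to 5.12 on upshift arrays and 1.30 to 2.46 on T0 arrays, 7.31-fold higher. It and KAR2 were the only called genes among 8 tested of 22 in the list of endoplasmic reticulum folding, whose median was -0.32. UBC4, a ubiquitin-conjugating enzyme for damaged proteins, had 1.96 to 3.61 (median 2.84) after the upshift and -1.33 to 0.31 (median -0.31) at T0, 9.34-fold higher. NPL4 and UFD1, partners of Cdc48 in the extraction of ubiquitylated proteins, rose by 2.35 ± 0.38 and 1.79 ± 0.37, and the ubiquitin-conjugating RAD6 and CDC34 by 1.30 ± 0.28 and 1.22 ± 0.37, CDC34 not being called with the series as a block. The ubiquitin-activating enzyme UBA1 fell by 1.26 ± 0.26 and the chain-elongating UFD2 by 1.34 ± 0.27. The 17 probes of the polyubiquitin gene UBI4 differed by only -0.03 to 0.42 (median 0.08). Of 32 proteasome genes tested none rose and 1 fell, PRE1 by 1.05 ± 0.31, a call that was lost with the series as a block (adjusted p 0.0799).

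Among energy stores and transport, the trehalose synthase subunits TPS1 and TSL1 rose by 1.01 ± 0.17 and 1.34 ± 0.25, the glycogen phosphorylase GPH1 by 1.38 ± 0.28 and GAC1, a subunit that targets a phosphatase to glycogen synthase, by 1.59 ± 0.29. These were 4 rises among 15 tested genes of trehalose and glycogen (26.7%, all genes 7.87%). PGM1, a phosphoglucomutase, was the 1 fall (1.25 ± 0.41), not called with the block (6.67% of the list, all genes 4.68%). The hexose transporters HXT6 and HXT3 rose by 1.88 ± 0.19 and 1.49 ± 0.25, among 12 tested (16.7%) and no fall. HXT6 is nearly identical to HXT7 (0.71 ± 0.19, not called), so the probes may share signal and both values are uncertain.

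Of 20 tested stationary phase genes 5 rose (25%) and 2 fell (10%), where all genes gave 7.87% and 4.68%. The rises were HSP26 and SSA3, SPI1 (2.49 ± 0.30), a cell wall protein, TMA10 (1.94 ± 0.27) and SPG4 (1.27 ± 0.32). RTN2 and FMP45 fell, by 1.10 ± 0.20 and 1.39 ± 0.34. The median was 0.32.

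In protein synthesis, 4 of 35 tested translation factor genes rose (11.4%) and 2 fell (5.71%), with a median of -0.24. These shares were near those of all genes tested, 7.87% and 4.68%. Of 134 cytosolic ribosomal protein genes 2 rose (1.49%) and 3 fell (2.24%), lower shares than over all genes. Their median of -0.25 was 0.14 without centring and 0.11 with quantile normalization. RPS27A had the largest rise at 1.71 ± 0.34. DED1, an RNA helicase of translation initiation, rose by 1.96 ± 0.27 and SUI3, a subunit of initiation factor eIF2, by 1.55 ± 0.21. TEF1 and TEF2, which encode the same elongation factor eEF1A and may share signal, rose by 1.33 ± 0.19 and 1.47 ± 0.19. EFT1 and EFT2, which encode the same elongation factor eEF2, fell by 1.26 ± 0.22 and 1.01 ± 0.26, the second only without the block. Histone genes had 2 falls among 10 (HHT1 1.15 ± 0.22 and HTB2 1.37 ± 0.31) and a median of -0.65. Neither fall was called without centring.

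Oxidative stress defence was the list with the most falls, 8 of 33 tested (24.2%, all genes 4.68%), with no rise and a median of -0.66 (all genes -0.11). Without centring 2 of the list fell, 1 rose and the median was -0.28. GSH1, the rate-limiting enzyme of glutathione synthesis, had -0.26 to 0.73 (median 0.25) on upshift arrays and 1.84 to 3.52 (median 2.45) on T0 arrays, with no overlap. It fell by 2.33 ± 0.27 (adjusted p 2.02e-05 by limma). SOD2, the mitochondrial superoxide dismutase, had -2.68 to -0.98 after the upshift and -0.41 to 0.43 at T0 and fell by 1.78 ± 0.23. The glutaredoxin GRX2 fell by 1.76 ± 0.23, the peroxiredoxin TSA1 by 1.40 ± 0.18, the cytochrome c peroxidase CCP1 by 1.59 ± 0.30, GRE2, a reductase, by 1.2 ± 0.23 and the thioredoxin reductase TRR1 by 1.01 ± 0.24. The sulfiredoxin SRX1 fell by 1.63 ± 0.52 and was not called with the series as a block.

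The other large falls with complete values came from varied functions. CYC1, cytochrome c isoform 1, had -2.10 to -0.61 on upshift arrays and -0.51 to 2.15 on T0 arrays and fell by 2.28 ± 0.39. YDL199C, an unnamed transporter-like gene, fell by 2.15 ± 0.36, PAN1, an endocytic actin regulator, by 1.74 ± 0.25, RFA3, a subunit of replication protein A, by 1.65 ± 0.25 and the vacuolar aminopeptidase APE3 by 1.64 ± 0.24. The adenylate kinase ADK1 fell by 1.52 ± 0.39, LYS20, the homocitrate synthase that opens lysine synthesis, by 1.51 ± 0.25 and ICL2, the methylisocitrate lyase of mitochondria, by 1.49 ± 0.18. Of the 10 largest falls chosen this way (these 8 with GSH1 and SOD2) 6 were also called without centring, and ADK1, ICL2, LYS20 and RFA3 were not. PST1, a cell wall protein measured on 7 upshift and 5 T0 arrays, fell by 2.30 ± 0.27.

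The largest differences of all were in copper metallothionein and in genes that stand beside it in the numbering of the probes. CUP1-2 had 5.65 to 8.14 (median 7.09) on upshift arrays and -2.40 to -1.06 (median -2.03) on T0 arrays, 491-fold higher, with an adjusted p of 5.12e-11 by limma. CUP1-1 is an identical copy and cannot be told apart from it on the array. CPR2, a cyclophilin of the secretory pathway, had 5.52 to 7.63 after the upshift and -1.71 to -0.34 at T0, 201-fold higher. Genes near each other on a chromosome often have neighbouring probe numbers, and the probes of CUP1-1, CUP1-2, CPR2, FYV4, GIC1, QNS1, PTC7 and YHR078W are numbered 3159 to 3166. At the probe level these differed by 8.64, 8.91, 7.63, 6.24, 3.39, 4.76, 5.41 and 2.49 in that order. The probe just before them, of COX6 (3158), differed by -0.13. RSC30, which lies between CUP1-2 and CPR2 on the chromosome, has probe 6571 and differed by 1.36. OSH3, which lies between CPR2 and PTC7, has probe 6574 and differed by 0.45. RRP3 and NCP1, described below, are on the same chromosome with probes 2301 and 2295, and differed by 6.73 and 6.09 at the probe level.

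The same was seen after other strongly higher probes. COA4 (probe 707, 4.13) follows CPR6 (706, 5.03), IQG1 (5933, 4.51) follows HSP82 (5932, 5.38), YPL108W (420, 3.99) follows SSE1 (419, 4.36) and ATC1 (1780, 4.57) follows HSP42 (4.26). LYS2, of lysine synthesis, rose by 3.06 ± 0.23 in a strain whose genotype lists lys2, and its probe (6430) follows that of FES1. Among genes with 1 probe, 47 probes differed by at least 3. Of 36 measured probes numbered 1 higher, 29 (80.6%) were at least 2-fold higher, with a median of 2.34, against 271 of all 3289 probes (8.24%, median -0.14). Leaving aside neighbours that themselves differed by 3 or more, 16 of 23 probes just after and 2 of 16 probes just before were at least 2-fold higher. For 46 genes next to such a gene on a chromosome but over 12 apart in probe number, 14 (30.4%) were at least 2-fold higher, with a median of 0.65. The part of probe order in these rises was not tested. Without the genes whose probe directly follows one with a difference of 3 or more, an alternative chosen after seeing the data, 207 genes rose and 142 fell among 2999. That alternative did not address the positions 2 and 3 after, where 19 of 34 (55.9%) and 12 of 32 probes (37.5%) were at least 2-fold higher.

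**Figure D3:**
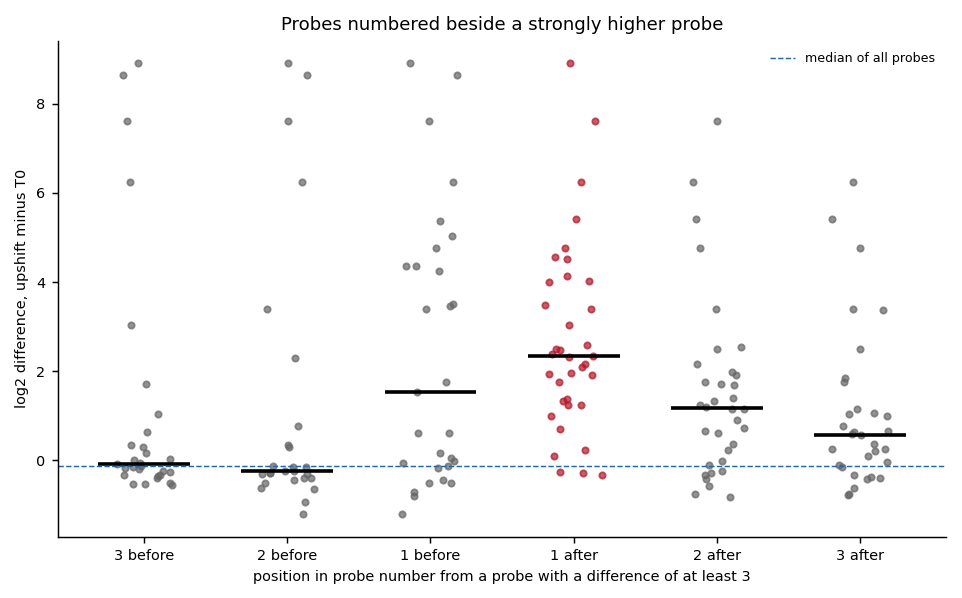
Log2 difference between upshift and T0 arrays (y axis) of probes numbered 3, 2 or 1 before and 1, 2 or 3 after the 47 probes with a difference of at least 3 (x axis). Each point is a probe, bars are medians and the dashed line is the median of all probes. The median is 2.34, 1.18 and 0.58 at 1, 2 and 3 after. It is 1.53 just before, and near the dashed line 2 and 3 before.

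The other rises among the 10 largest with complete values were RRP3, NCP1, QNS1, PER33 and YAR1, beside CUP1-2, CPR2, HSP82, SSA4 and CPR6. RRP3, an RNA helicase of ribosomal RNA processing, had 4.04 to 5.94 on upshift arrays and -2.44 to -0.66 on T0 arrays, 108-fold higher. NCP1, the reductase partner of cytochrome P450 enzymes in ergosterol synthesis, had 2.20 to 4.39 after the upshift and -2.71 to -2.14 at T0, 69.3-fold higher. Their probes are numbered 2301 and 2295, and the probe just before each had too few upshift values for a difference to be taken. Before RRP3, PAN5 had means of -0.35 on 5 upshift arrays and -0.64 on 5 T0 arrays. Before NCP1, BCD1 had 0.37 on 4 upshift arrays and 0.52 on 6 T0 arrays. FSH1 (probe 2299), which also precedes RRP3, differed by 2.30. PER33, a membrane protein of the endoplasmic reticulum and nuclear pores, was 26.6-fold higher and YAR1, an ankyrin-repeat partner of ribosomal protein S3, 25.3-fold higher. QNS1, the NAD synthetase, was 27.7-fold higher and lies in the run of probes after CUP1. Of the other ergosterol genes, ERG7 and ERG5 rose by 1.22 ± 0.19 and 1.05 ± 0.20 among 21 tested and none fell. With NCP1 these were 3 rises (14.3%, all genes 7.87%), and the median of the list was 0.11. ERG7 was not called with quantile normalization.

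Within the window most changes were larger at the later times, but no gene passed the test. The comparison of 120 and 150 min with 60 and 90 min gave 0 rises (0%) and 0 falls (0%) among 3037 genes by limma, with 179 genes at an unadjusted p under 0.05 and a lowest adjusted p of 0.232. SSA4 differed by 1.67, HSP82 by 1.08, CUP1-2 by 1.04, CPR6 by 1.03 and SIS1 by 0.83 between late and early arrays. Of the 239 genes that had risen against T0, 210 were higher late than early, with a median of 0.50, and of the 142 that had fallen 114 were lower late, with a median of -0.35, against -0.02 for all genes. The 239 stood above T0 by medians of 1.41, 1.77, 1.92 and 2.14 at 60, 90, 120 and 150 min. Series 2 moved more than series 1 for SSA4 and HSP82, as the values above show. In series 2 alone 2 genes rose, SSA4 by 2.93 ± 0.39 and GRS1, glycyl-tRNA synthetase, by 4.01 ± 0.45, with adjusted p of 0.0409 and 0.0186. That fit has 1 upshift array at each time, which is assumed to vary like the T0 arrays.

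**Figure D4:**
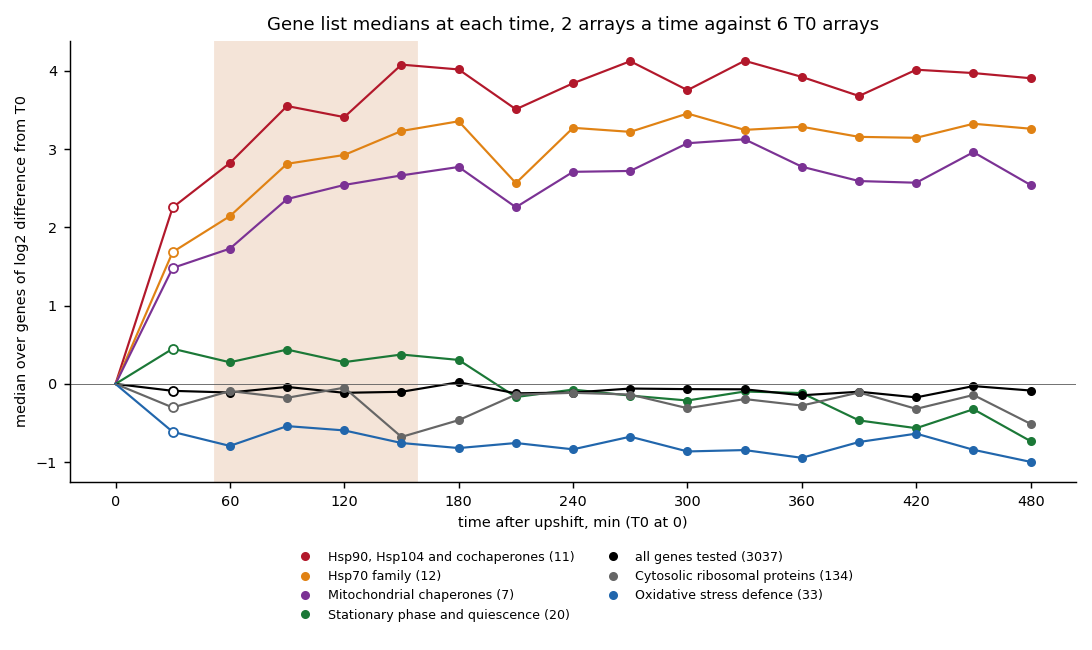
Median log2 difference from the 6 T0 arrays over the tested genes of each list (y axis) against time after the upshift (x axis), with T0 drawn at 0 and the number of genes in parentheses. The shaded band marks the 4 times compared and open points mark 30 min, which was left out. The medians of the Hsp90 and Hsp70 lists stand at 2.82 and 2.14 at 60 min and at 4.08 and 3.23 at 150 min, while all genes stay near 0.

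At matched times the upshift and menadione arrays differed widely, in a comparison that uses no T0 arrays. Course and treatment cannot be told apart here either. The 8 menadione arrays correlated with each other at 0.546 to 0.952 (median 0.818), a wider range than among upshift arrays. Their medians before centring ran from -0.06 to 1.97. By the same rule 661 of 3217 genes were higher (20.5%) and 655 lower (20.4%) after the upshift than after menadione by limma. Without centring these were 339 and 1055, with the median gene at -0.61, and with quantile normalization 654 and 393. Chaperones were among the higher genes: 8 of 12 Hsp70 genes were higher and 2 lower (SSB1 at -1.41 and SSB2 at -1.49, neither lower with quantile normalization), and 9 of 11 genes of the Hsp90 list were higher and none lower, or 7 higher and 1 lower without centring. The medians of the lists were 3.35 and 3.28. SSA3 had 2.97 to 4.28 after the upshift and -2.93 to -1.29 after menadione, a difference of 5.46 ± 0.23. HSP30, which rose against T0, differed less here, with 2.70 to 4.05 after the upshift and 2.02 to 2.73 after menadione, a difference of 0.92 ± 0.17 (adjusted p 0.000718) that is under 2-fold.

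Stationary phase genes were higher after the upshift than after menadione in 16 of 20 cases and lower in none, with a median of 2.84 (2.25 without centring and 2.76 with quantile normalization). Against T0 the list medians at single times were 0.28 to 0.44 after the upshift and -2.54 to -1.77 after menadione. Most of the gap thus lay on the menadione side. HSP12, which was not called against T0, had 2.28 to 3.03 after the upshift and -2.70 to -0.12 after menadione, a difference of 4.04 ± 0.23. The 5 largest differences with complete values were CUP1-2 (7.56 ± 0.36), CPR2 (6.85 ± 0.36), RRP3 (5.63 ± 0.27), NCP1 (5.26 ± 0.30) and BTN2 (4.96 ± 0.23), a sorting factor for misfolded proteins. BTN2 had 4.32 to 6.27 after the upshift and -0.08 to 1.09 after menadione.

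In the other direction, oxidative stress defence genes were lower after the upshift in 17 of 33 cases and higher in 3, with a median of -1.34. Against T0 the list medians at single times were -0.79 to -0.54 after the upshift and 0.21 to 0.83 after menadione. The 5 largest differences among genes with a value on every array were PST2, a flavodoxin-like quinone reductase (-5.78 ± 0.29), AAD14, of the aryl-alcohol dehydrogenase family (-4.86 ± 0.18), the transketolase TKL1 (-4.79 ± 0.34), TSA1 (-4.78 ± 0.18) and GND1, 6-phosphogluconate dehydrogenase (-4.66 ± 0.31). PST2 had -2.74 to -1.59 after the upshift and 2.91 to 4.49 after menadione. GND1 and TKL1 act in the pentose phosphate pathway, of which 5 of 11 genes were lower and 1 higher. Cytosolic ribosomal protein genes were lower after the upshift in 85 of 134 cases and higher in 1, with a median of -1.26, but with quantile normalization 10 were lower and 6 higher, with a median of -0.19. Against T0 their medians at single times, on centred values, were -0.68 to -0.05 after the upshift and 0.43 to 1.24 after menadione.

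**Figure D5:**
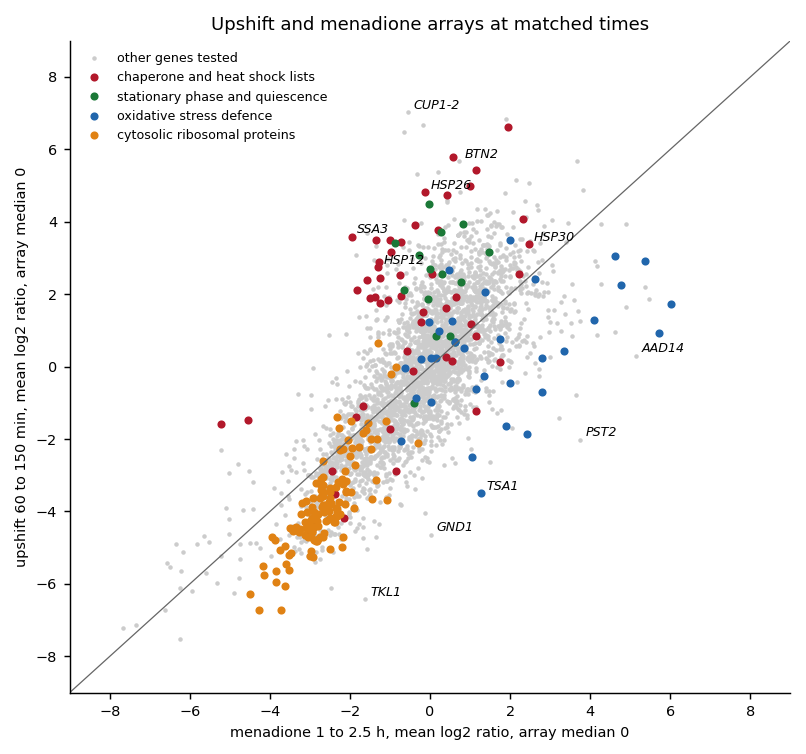
Mean centred log2 ratio of each of 3217 genes on 8 upshift arrays (y axis) and 8 menadione arrays (x axis), with the line of equal values. Chaperone and heat shock genes (red) and stationary phase genes (green) lie mostly above the line, and oxidative stress defence genes (blue) and ribosomal protein genes (orange) mostly below it.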

How the data were processed

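Yeast RNA was hybridized to spotted oligonucleotide arrays. As deposited by the authors, each value is a linear ratio: Cy5 signal (sample) over Cy3 signal (shared RNA pool), each after background subtraction. The sources used here do not say whether the normalization to added Arabidopsis RNA is in these ratios. The planned test needed log2 ratios, so values were converted, and those at or below 0 (0.917 to 4.46% of an upshift array, 0.755 to 3.12% of a T0 array) and a marker of 100000 were missing. For 1 further menadione course the authors deposited log2 values, already scaled to control RNA per the labels, which served only to compare arrays by correlation. Of 6819 probes 5904 named 1 gene, giving 5691 genes, 33 of them averaged over several probes. Names came from the platform annotation and RefSeq (assembly R64).

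Arrays were centred on their median. Genes with a value in 80% of the arrays were fitted with limma 3.58.1 in R 4.3.3 (a mean for each time, Benjamini-Hochberg over all genes tested). The fit was checked on simulated data with independent noise on each array, which cannot check whether times are independent. A gene was called, and rose or fell, when its adjusted p was under 0.05 and its change was 2-fold or more. Lists are given by counts and medians. The fit had no series term and took times as independent. Deviations from time means correlated at 0.236 to 0.519 between arrays of the same series in all 6 pairs of times, so the series number was taken to link arrays, and a fit with it as a random block was an alternative. Named genes were the 10 largest rises and falls against T0 with 14 values and no overlap, the 5 largest against menadione, the 2 largest of each list in each direction and all tested members of 4 heat shock lists. Other named genes, such as further called list members, GRS1, HXT7 and the genes of neighbouring probes, were chosen after their values were seen. Members and lists were chosen with earlier results of these data known. Alternatives covered scaling, filters, moderation, blocks and arrays left out. Figures used Matplotlib 3.10.9.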

Additional observations from a re-analysis of the deposited data

Results flagged for a closer look

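Among 112 named genes, 8 had a T0 array far from the other 5, where chance alone flags about 5% of groups. On T0 replicate 1, SSZ1 lay at -2.31 (others -3.01 to -2.75) and UBA1 at -2.98 (others -1.88 to -1.61). On T0 replicate 2, AAD14 lay at -0.45 (others 0.62 to 1.11), GAC1 at 2.99 (others 0.94 to 1.67) and SSA2 at -7.61 (others -5.82 to -5.25). On T0 replicate 4, NPL4 lay at 3.20 (others 0.41 to 1.06) and PER33 at -1.70 (others -2.31 to -2.15). On T0 replicate 6, TKL1 lay at -4.65 (others -7.01 to -6.25). The calls of GAC1, NPL4, PER33, SSA2, SSZ1 and UBA1 against T0 were kept without any 1 of the T0 arrays.

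Upshift arrays outside the comparison also stood above T0. Over the 239 genes that rose at 60 to 150 min, the median difference from T0 was 1.11 on the 30 min array of series 1 and 1.13 on that of series 2, with 225 of 236 and 233 of 238 measured genes above T0. These are the arrays that match lysate arrays (0.991 and 0.994). They also correlated with the upshift arrays of their own series, at 0.925 to 0.952 in series 1 and 0.946 to 0.956 in series 2. Replicate 1 of the lysate condition that each matched correlated with it at -0.20 for series 1 and -0.21 for series 2. Over the 22 arrays from 180 to 480 min the same genes had a median of 1.87, with 205 past 2-fold. For all 3037 genes tested the median on these 22 arrays was -0.11, with 299 past 2-fold. The 239 genes were called against the same T0 arrays, so these differences are not independent evidence of the rises.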

How the results depend on the processing

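The called genes of the Hsp70 and Hsp90 lists kept their calls against T0 under every alternative in which they were tested, and no gene named by rule reversed. The count of rises against T0 (239) was 130 with the 2 series averaged first, which leaves 2 upshift values. The count of falls (142) was 16 without centring, 88 with a value in every array (1845 genes tested), 91 with the replicate block and 31 with series means. Leaving out 1 upshift series or 1 T0 array gave 226 to 260 rises and 85 to 206 falls; the extremes of the falls are series 1 alone and series 2 alone, and 140 rises and 36 falls were called in each. Calls of the genes named by rule were counted against T0 and, for 10 of these genes, against menadione as well. Of these calls 25 were lost without centring, 13 with quantile normalization and 8 with the replicate block. Series means were fitted against T0 only, and there 32 were lost. Without a test, 38 genes were at least 2-fold higher and 46 lower late than early, and leaving out 1 series gave 0 to 2 rises (2 without series 1, SSA4 and GRS1) and 0 falls. Against menadione (661 higher, 655 lower), no centring gave 339 and 1055, quantile normalization 393 lower, a value in every array 385 and 312 (1634 genes tested), and leaving out 1 replicate of either course 525 to 636 higher and 341 to 611 lower. Except where a construction is named, the cause was not tested. The block left 0 calls late against early. Apart from the falls against T0 (142 to 91), it changed no count by over 1.5 times. Intensities were not used, so signal over background is unknown.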
